A study of Mus musculus with 6 samples.

Results

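The 8 genes described here are p53 targets with roles in metabolism, redox balance or mTOR signalling, measured in the heads of E9.0 *Snrpb* mutant and wild-type (WT) mouse embryos. They were *Sesn1*, *Sesn2*, *Ddit4l*, *Slc19a2*, *Pank1*, *Ak1*, *Gls2* and *Sco2*, that is, 8 of the 24421 gene symbols in the count matrix. The genes were chosen by function, from a list drawn up with the WT and mutant values of these data known, so their own difference between the groups is given as a description, and the calls of the fits across all genes are given for them only as counts that support nothing. Of the 8, 7 passed the filter on low counts, and *Sco2* had a count of 0 throughout. Of these 7, 4 were higher in every mutant library than in any WT library, against 8.32% of all tested genes. The other 3 had overlapping groups. The higher genes were *Ddit4l*, *Slc19a2*, *Sesn2* and *Ak1*, with mutant over WT ratios of mean levels of 1.87, 1.77, 1.44 and 1.39.

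RNA came from whole heads of embryos at E9.0, and each library pooled 2 heads of somite-matched embryos from different litters, with 3 WT and 3 mutant libraries. WT embryos were SnrpB +/+, and mutants (Snrpb ncc+/-) carried 1 *Snrpb* allele whose *loxP*-flanked exons are deleted by the Wnt1-Cre2 transgene. *Snrpb* encodes SmB, a core protein of the small nuclear ribonucleoprotein particles of the spliceosome. Wnt1-Cre2 acts in the neural tube and in neural crest cells, so surface ectoderm, mesoderm, endothelium and blood of the same heads keep both alleles. The strain is given as C57BL/6 in one label and as CD1 in others, and the paper states a mixed CD1 and C57BL/6J background for its embryos. A whole head is a mixture, so fewer cells of a type and less RNA per cell cannot be told apart for any gene below.

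p53 is a transcription factor that is held at a low level by Mdm2 and accumulates under stress. Besides arrest and death genes it switches on genes that restrain growth and adjust metabolism. Sestrins and the Redd proteins hold back mTORC1, the kinase complex that couples nutrients to protein synthesis. Other targets change how a cell handles thiamine, coenzyme A, adenine nucleotides, glutamine and the respiratory chain.

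The library totals ranged from 36378803 to 74909774 assigned reads, and 15584 genes passed the filter on low counts and were tested with edgeR. Levels are given as CPM, counts scaled to the size of each library. Gene-level *Snrpb* counts were alike, between 414 and 438 CPM in WT and between 412 and 436 CPM in mutants, but reads from the exons that remain after the deletion are counted too, so this level does not check the genotype. *Trp53*, the p53 gene, was at 155 ± 14.3 CPM (SD, n = 3) in WT and 154 ± 7.44 CPM in mutants. *Cdkn1a*, the p53 target that arrests the cell cycle, was at 2.20, 1.00 and 1.22 CPM in the WT libraries and at 5.35, 7.84 and 8.29 CPM in the mutants. Markers of neural tube and neural crest were present in all libraries, at summed levels of 391 to 486 CPM and 207 to 278 CPM, and posterior trunk markers summed to 0.189 CPM at most. The markers of heart, a tissue outside the head proper, summed to 5.63, 42.6 and 29.1 CPM in WT libraries 1, 2 and 3 and to 16.8, 42.2 and 72.4 CPM in mutant libraries 1, 2 and 3. Visceral endoderm markers summed to 26.8 CPM in WT library 1 and to between 5.89 and 7.44 CPM in the other libraries.

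p53 binds DNA through half-sites of 10 bases, usually as 2 copies close together. The promoters of the genes, from 250 bases before to 50 bases after each start in RefSeq (GRCm38.p6), were searched for the p53 half-site consensus, which reads the same on both strands. Entries matched 7 of the 8 genes. An exact half-site was found at *Ddit4l* and at the second start of *Sesn1*, while *Sesn2*, *Slc19a2* and *Sco2* held none, even with 1 mismatch allowed outside the central C and G. With 1 mismatch, *Ak1* and *Pank1* each gained a match before their second start, and *Pank1* another just after it. The 30-base windows are shown because they set a gene with higher levels in the mutants beside one with equal levels, and the half-site is in capitals.
Ddit4l: caactcccagGGGCTTGCCTgggcccctgc
Sesn1: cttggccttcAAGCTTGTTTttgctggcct
Ak1: aacacacCAACTTGTCTgagcatcagctga
Pank1: tagggcccatTGGCAAGCTTaaggaggcgt

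The *Ddit4l* window lies at chr3:137623572-137623601 on the plus strand, with the half-site beginning 90 bases before the start. The *Sesn1* window lies at chr10:41887256-41887285 on the plus strand, with the half-site beginning 173 bases before that start. The *Ak1* window is at chr2:32625187-32625216 on the plus strand, and the *Pank1* window is at chr19:34878110-34878139 on the minus strand. In the Gencode M21 annotation all 4 windows fall in introns of transcripts that begin further upstream. An exact half-site was present in 8.36% of all 32851 promoters and one with up to 1 mismatch in 50.9%, so a match is common and is a description of the letters only. The ATF4 element TGATGNAA, searched on both strands because *Sesn2* is also known as a target of ATF4, was in none of the 7 genes' promoters and in 3.97% of all.

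*Sesn2* and *Sesn1* encode sestrins, stress-inducible proteins that act on the GATOR complexes upstream of mTORC1, and *Sesn2* also senses leucine. *Sesn2* (ENSMUSG00000028893, chr4:132492032-132510501, minus strand) was at 25.54, 20.96 and 16.76 CPM in WT libraries 1, 2 and 3 and at 27.61, 29.36 and 33.94 CPM in mutant libraries 1, 2 and 3. All 3 mutant libraries exceeded the highest WT library, but the gap between the highest WT and the lowest mutant library was smaller than the range within either group. The log2 fold change was 0.53 with an SE of 0.15. *Sesn1* (ENSMUSG00000038332, chr10:41809935-41908424, plus strand) was at 16.9, 18.8 and 17.3 CPM in WT and at 17.6, 17.8 and 17.0 CPM in mutants. The mutant values lay inside the WT range, and the log2 fold change was -0.02 with an SE of 0.07. The remaining sestrin gene, *Sesn3*, which is controlled by FoxO factors, overlapped between the groups too, with a log2 fold change of -0.11 (SE 0.10, edgeR adjusted p = 0.798). Within the sestrins the mutant levels were thus higher for *Sesn2* alone, and the difference between these genes' fold changes was not tested.

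*Ddit4l* encodes Redd2, an inhibitor of mTORC1 signalling like its better known relative Redd1, the product of *Ddit4*. *Ddit4l* (ENSMUSG00000046818, chr3:137621612-137628333, plus strand) was at 2.97, 2.38 and 2.16 CPM in WT and at 4.00, 4.81 and 5.25 CPM in mutants. These levels rest on 80 to 140 reads in a WT library and 169 to 366 in a mutant library. The groups were well apart, and the log2 fold change of 0.91 (SE 0.16) was the highest of the 7 genes measured. *Ddit4* was at 35.8, 30.9 and 33.1 CPM in WT and at 35.0, 45.5 and 40.1 CPM in mutants. One mutant library of *Ddit4* fell within the WT range, and its log2 fold change was 0.28 (SE 0.098, edgeR adjusted p = 0.50).

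**Figure D1:**
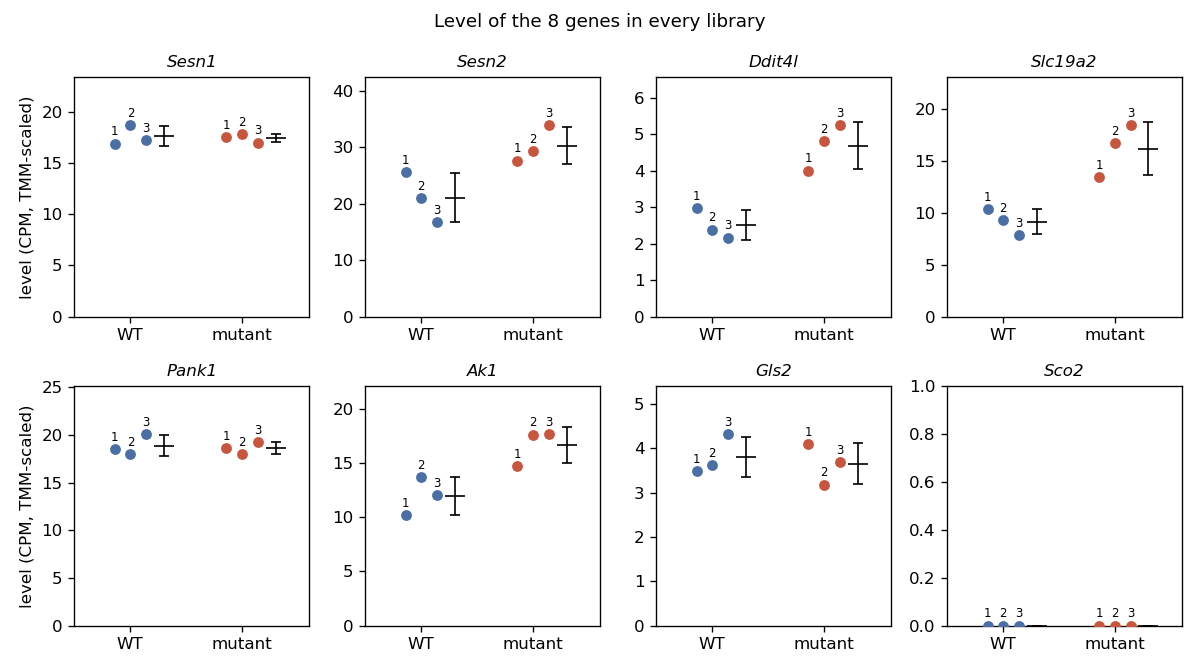
Level of each of the 8 genes in every library, in CPM scaled by trimmed mean of M-values (y axis, from 0), for the 3 WT (blue) and 3 mutant (red) libraries, numbered as in the labels; black bars give the mean ± SD. *Sesn2*, *Ddit4l*, *Slc19a2* and *Ak1* do not overlap between groups, *Sesn1*, *Pank1* and *Gls2* do, and *Sco2* is at 0.

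*Slc19a2* and *Pank1* handle vitamins and their cofactors. *Slc19a2* (ENSMUSG00000040918, chr1:164249046-164265385, plus strand) encodes the high-affinity thiamine transporter, which brings vitamin B1 into the cell. It was at 10.3, 9.28 and 7.87 CPM in WT libraries and at 13.4, 16.7 and 18.5 CPM in mutant libraries. The lowest mutant library was above the highest WT library, and the log2 fold change was 0.83 with an SE of 0.14. The folate carrier of the same family, *Slc19a1*, had a log2 fold change of 0.02 (SE 0.069, edgeR adjusted p = 0.964). The other thiamine transporter, *Slc19a3*, was barely detected, at 0.353 ± 0.10 CPM in WT and 0.574 ± 0.10 CPM in the 3 mutant libraries (SD). Its log2 fold change of 0.64 had an SE of 0.28 (edgeR adjusted p = 0.592). The groups of *Slc19a3* did not overlap either, with the highest WT library at 0.46 and the lowest mutant library at 0.496 CPM.

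*Pank1* (ENSMUSG00000033610, chr19:34806940-34879455, minus strand) encodes a pantothenate kinase, which carries out the first step of coenzyme A synthesis. It was at 18.5, 18.0 and 20.1 CPM in WT and at 18.6, 18.0 and 19.2 CPM in mutants. The 2 groups overlapped fully, and the log2 fold change was -0.02 (SE 0.066). The other pantothenate kinase genes had log2 fold changes of -0.06 for *Pank2*, 0.05 for *Pank3* and 0.10 for *Pank4*, each with overlapping groups. The microRNA gene *Mir107* lies within *Pank1* and had between 0 and 3 reads in a library.

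*Ak1* and *Gls2* act in energy and glutamine metabolism. *Ak1* (ENSMUSG00000026817, chr2:32621758-32635058, plus strand) encodes the cytosolic adenylate kinase, which balances ATP, ADP and AMP and is abundant in muscle. It was at 10.2, 13.7 and 12.1 CPM in WT libraries 1, 2 and 3 and at 14.7, 17.6 and 17.7 CPM in mutant libraries 1, 2 and 3. The groups did not overlap, with the highest WT library just below the lowest mutant library, and the log2 fold change was 0.47 (SE 0.12). In both groups *Ak1* ordered the libraries as the summed heart markers did, lowest in WT library 1 and mutant library 1 and highest in WT library 2 and mutant library 3, although mutant libraries 2 and 3 were nearly equal for *Ak1*. *Sesn2*, *Slc19a2* and *Ddit4l* ordered the mutant libraries as the heart markers did too, but not the WT libraries. None of the heart markers was called between the groups by edgeR or DESeq2, and all 5 were detected in at least 1 library. With the heart marker level as a covariate the log2 fold change of *Ak1* was 0.35, while those of *Sesn2*, *Slc19a2* and *Ddit4l* were 0.58, 0.80 and 0.93.

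*Gls2* (ENSMUSG00000044005, chr10:128194457-128210004, plus strand) encodes the liver-type mitochondrial glutaminase, which makes glutamate from glutamine. Its level was 3.49, 3.63 and 4.32 CPM in WT and 4.10, 3.18 and 3.69 CPM in mutants. The groups overlapped, with a log2 fold change of -0.07 (SE 0.14).

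*Sco2* (ENSMUSG00000091780, chr15:89371637-89373846, minus strand) encodes a copper chaperone needed to assemble cytochrome c oxidase. It had 0 reads in each of the 6 libraries, and a count of 0 allows up to 3 reads, that is, between 0.0395 and 0.0824 CPM depending on the library, for counting error only. In the Gencode M21 annotation 1150 of its 1253 exonic bases, 91.8%, are also exons of other genes, *Tymp* on the same strand (68.3%) and *Ncaph2* on the opposite strand. *Tymp* had 34 to 81 reads in a library and *Ncaph2* had 7785 to 16786. How reads in shared exons were assigned is not given in the sources used here, so the count of 0 does not measure the *Sco2* transcript, and the part of the overlap in it was not tested. *Sco1*, the related chaperone, was detected at 38.7 ± 0.15 CPM in WT and 39.9 ± 1.20 CPM in the 3 mutant libraries (SD). No exonic base of *Sesn1*, *Sesn2*, *Ddit4l*, *Slc19a2*, *Pank1* or *Ak1* was shared with another gene, and 2.79% of those of *Gls2* were shared with *Spryd4*, whose log2 fold change was 0.06.

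**Figure D2:**
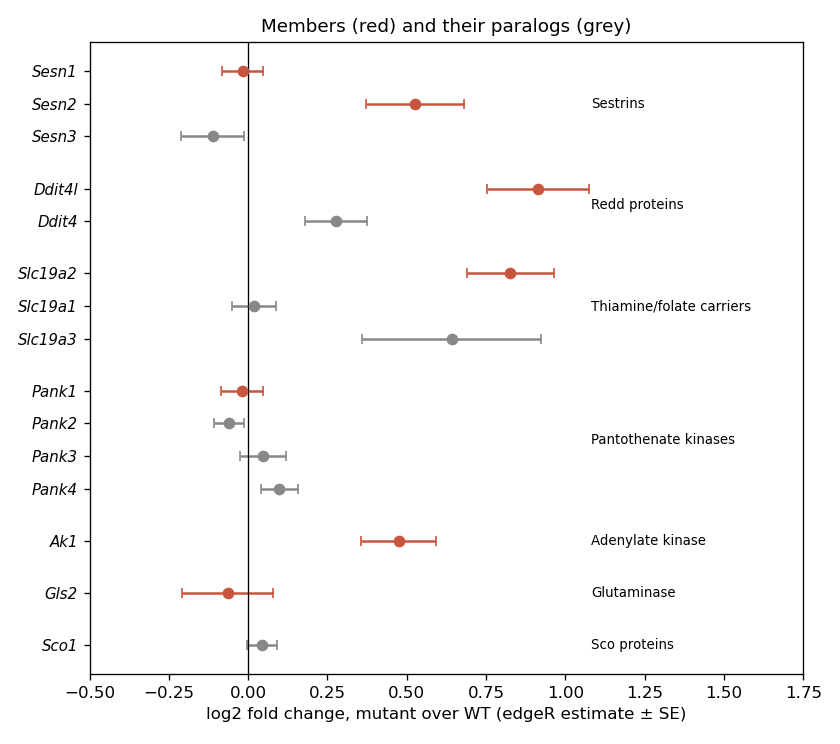
log2 fold change, mutant over WT (x axis), of the 7 measured genes (red) and of paralogs (grey), grouped by family; points are edgeR estimates and bars ± 1 SE. *Sesn2*, *Ddit4l* and *Slc19a2* lie to the right of the paralogs shown for their family, and *Slc19a3* has the widest bar at a level under 1 CPM. The bars of *Slc19a2* and *Slc19a3* overlap.

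Counts of the genes called stand here beside the same counts over all genes, and nothing is read from the comparison, since the list was drawn up with these values known. All mutant libraries were above all WT libraries in 4 of the 7 measured genes, against 8.32% of tested genes, and below them in 0, against 6.92%. The edgeR quasi-likelihood test with Benjamini-Hochberg adjustment called none of the 7 at a threshold of 0.05, and it called 0.00642% of all tested genes, a single gene. At an unadjusted p under 0.05 edgeR passed 4 of the 7 as higher, against 4.34%, and 0 as lower, against 4.09%. DESeq2, the tool that the study used, called 4 of the 7 as higher at an adjusted p under 0.05, against 0.434% of 12908 genes with an adjusted p, and 0 as lower, against 0.217%. These were *Ddit4l*, *Slc19a2*, *Sesn2* and *Ak1*.

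The order of the libraries within each group was also much alike among the 4 higher genes. In all 4, mutant library 1 was the lowest and mutant library 3 the highest, a pattern found in 20.6% of all tested genes. In *Sesn2*, *Slc19a2* and *Ddit4l*, 3 of the 4, WT library 1 was the highest and WT library 3 the lowest, found in 18.8% of tested genes, and both patterns together were found in 3.11%. *Ak1* differed in the WT libraries only. The 4 genes share their libraries, so this describes 6 libraries once and not 4 times, and it was not tested.

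With any 1 library left out, the log2 fold change ranged from 0.82 to 1.04 for *Ddit4l*, from 0.72 to 0.94 for *Slc19a2*, from 0.39 to 0.67 for *Sesn2* and from 0.37 to 0.59 for *Ak1*. The lowest value of *Sesn2* came without WT library 3 and that of *Ak1* without WT library 1. Under DESeq2 with a library left out, *Slc19a2* passed in 6 of 6 fits, *Ddit4l* in 3, *Ak1* in 2 and *Sesn2* in 1. The number of these genes called was 1 without WT library 3, mutant library 2 or mutant library 3, and 3 without WT library 1, WT library 2 or mutant library 1. Counts over all genes in these fits are given in the closing section. The fits share libraries and the genes were chosen with these values known, so the passes support nothing and do not rank the genes. Y-linked genes, whose level depends on the number of male embryos in a pool, had a mean log2 CPM of 3.93 to 4.88 in WT and 4.78 to 5.82 in mutants. With it as a covariate the log2 fold changes were 0.91 for *Ddit4l*, 0.81 for *Slc19a2*, 0.48 for *Sesn2* and 0.45 for *Ak1*, and -0.08 for *Sesn1*, 0.09 for *Pank1* and 0.13 for *Gls2*.

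**Figure D3:**
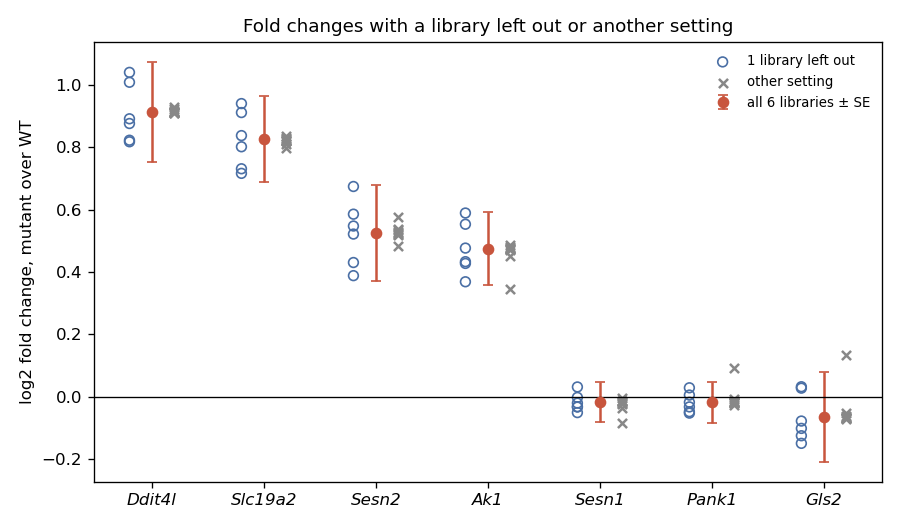
log2 fold change, mutant over WT (y axis), of the 7 measured genes with all 6 libraries (red, ± SE), with 1 library left out (blue circles, edgeR) and under the other settings with all libraries (grey crosses). The values of *Ddit4l*, *Slc19a2*, *Sesn2* and *Ak1* lie above 0, the lowest being 0.346 for *Ak1* with the heart marker covariate. Those of *Sesn1*, *Pank1* and *Gls2* lie on both sides of 0. The groups of the other genes do not overlap, so leaving out a library could hardly place their values below 0.

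Levels can be compared between genes once divided by exonic length (CPM per kilobase, Gencode M21 exons, with means ± SD over 3 libraries). In WT heads the order was *Sesn2* (6.07 ± 1.26), *Ak1* (4.62 ± 0.68), *Sesn1* (4.43 ± 0.24), *Slc19a2* (2.39 ± 0.32), *Pank1* (2.28 ± 0.13), *Gls2* (1.10 ± 0.13) and *Ddit4l* (0.859 ± 0.14). The range of *Ak1* overlapped those of *Sesn2* and *Sesn1*, which did not overlap each other, and the ranges overlapped between *Slc19a2* and *Pank1* and between *Gls2* and *Ddit4l*. In mutant heads the level per kilobase of *Ddit4l* was 1.61 ± 0.22, above that of *Gls2* at 1.05 ± 0.13 with no overlap. *Slc19a2*, at 4.22 ± 0.67, overlapped *Sesn1* at 4.39 ± 0.11 in place of *Pank1* at 2.25 ± 0.075. The exon models of the annotation used for counting may differ in length from these.

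The genes around *Sesn2*, *Ak1* and *Slc19a2* had log2 fold changes near 0. *Med18* and *Atpif1*, on either side of *Sesn2*, had log2 fold changes of 0.04 and 0.03. *St6galnac6* and *Eng* beside *Ak1* were at 0.12 and 0.01, and *F5* and *Ccdc181* beside *Slc19a2* were at 0.06 and -0.07, and for each of these genes the edgeR adjusted p was 0.710 or more. Both neighbours of *Ddit4l* had no reads. Next to *Sesn1*, *Armc2* had a log2 fold change of 0.98 with an SE of 0.38, on 5 to 31 reads in a library (edgeR adjusted p = 0.524). Next to *Pank1*, *Slc16a12* had 0.50 with an SE of 0.34, on 22 to 122 reads (edgeR adjusted p = 0.723).

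Among 23 other p53 targets with metabolic, redox or lipid roles, 21 were tested and the median log2 fold change was -0.03, against 0.00041 over all tested genes. edgeR called none. At an unadjusted p under 0.05 it passed 4 as higher and 1 as lower, against 4.34% and 4.09% of all tested genes. DESeq2 called 1 as higher, *Aldh4a1*, against 0.434% of its genes with an adjusted p. The same shares over all genes stand beside the counts of the lists below. *Aldh4a1*, the mitochondrial enzyme that completes the breakdown of proline to glutamate, was at 35.9, 36.6 and 33.1 CPM in WT and at 42.8, 40.7 and 42.8 CPM in mutants. Its groups were apart, with a log2 fold change of 0.26 (SE 0.055, edgeR adjusted p = 0.309, DESeq2 adjusted p = 0.0487). *Prodh*, the enzyme of the preceding step of proline breakdown, was lower in every mutant library, with a log2 fold change of -0.12 (SE 0.049, edgeR adjusted p = 0.551). *Cpt1c*, a brain form of carnitine palmitoyltransferase, had a log2 fold change of 0.45 (SE 0.14, edgeR adjusted p = 0.446), at 9.26, 9.96 and 8.87 CPM in WT and at 10.2, 12.7 and 15.4 CPM in mutants. *Fdxr*, ferredoxin reductase, was lower in every mutant library at -0.12 (SE 0.060, edgeR adjusted p = 0.639).

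The 37 tested genes of mTORC1 control, the pathway on which the sestrins and Redd proteins act, had a median log2 fold change of -0.01. Neither edgeR nor DESeq2 called any of them, and 2 passed as higher and 1 as lower at an unadjusted p under 0.05 in edgeR. The 2 higher ones were *Ddit4* and *Prkab1*, and both are also counted among the p53 targets passing as higher above. The lists share genes, so their counts are not separate. *Mtor*, the kinase itself, was at 159, 133 and 150 CPM in WT and at 122, 122 and 131 CPM in mutants, with a log2 fold change of -0.23 (SE 0.065, edgeR adjusted p = 0.433). *Gatsl2*, the older symbol for *Castor2*, a relative of the arginine sensor, was at -0.17 (SE 0.095, edgeR adjusted p = 0.665). *Prkab1*, a regulatory subunit of the energy-sensing kinase AMPK, was at 0.15 (SE 0.053, edgeR adjusted p = 0.495), and *Sec13*, a GATOR component that also serves in vesicle coats, was at 0.09 (SE 0.039, edgeR adjusted p = 0.598).

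Glutathione and peroxide genes, to which the antioxidant side of the sestrins and *Gls2* relates, numbered 29 tested with a median of -0.0046. Neither tool called any, and 0 passed as higher and 2 as lower at an unadjusted p under 0.05 in edgeR. *Cat*, which breaks down hydrogen peroxide, was at 125, 136 and 137 CPM in WT and at 119, 106 and 115 CPM in mutants, with a log2 fold change of -0.23 (SE 0.054, edgeR adjusted p = 0.384). *Glud1*, which passes glutamate into the citric acid cycle, was at -0.10 (SE 0.041, edgeR adjusted p = 0.559).

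The 28 tested paralogs and pathway partners of the genes, among them the copper and cytochrome oxidase factors around *Sco2*, had a median of 0.03, with none called by either tool and with 2 passing as higher and 0 as lower at an unadjusted p under 0.05 in edgeR. *Ddit4*, counted above, was among the 2 passing as higher. *Cox16*, a cytochrome oxidase assembly factor, was higher in every mutant library with a log2 fold change of 0.16 (SE 0.091, edgeR adjusted p = 0.675).

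*Sesn2* and *Ddit4* also respond to ATF4 and, for *Ddit4*, to low oxygen, so those targets were counted as well. The 22 tested ATF4 targets had a median of -0.02, and neither tool called any. At an unadjusted p under 0.05 in edgeR, 1 passed as higher, again *Ddit4*, and 1 as lower. *Chac1*, a sensitive ATF4 target that degrades glutathione, was at 1.40, 1.12 and 0.95 CPM in WT and at 0.83, 0.82 and 0.89 CPM in mutants, lower in every mutant library with a log2 fold change of -0.45 (SE 0.20, edgeR adjusted p = 0.602). *Aldh18a1*, which begins proline synthesis, was at -0.20 (SE 0.047, edgeR adjusted p = 0.338). *Ppp1r15a* and *Eif4ebp1*, 2 further targets, were higher in every mutant library, at 0.15 and 0.11 (edgeR adjusted p = 0.604 and 0.594). The 18 tested genes of hypoxia and glycolysis had a median of 0.01, and neither tool called any. At an unadjusted p under 0.05 in edgeR, 2 passed as higher, with *Ddit4* again among them, and 2 as lower. *Vegfa* was at 0.16 (SE 0.050, edgeR adjusted p = 0.437), *Ndrg1* at -0.40 (SE 0.15, edgeR adjusted p = 0.518) and *Ero1l* at -0.13 (SE 0.055, edgeR adjusted p = 0.554).

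**Figure D4:**
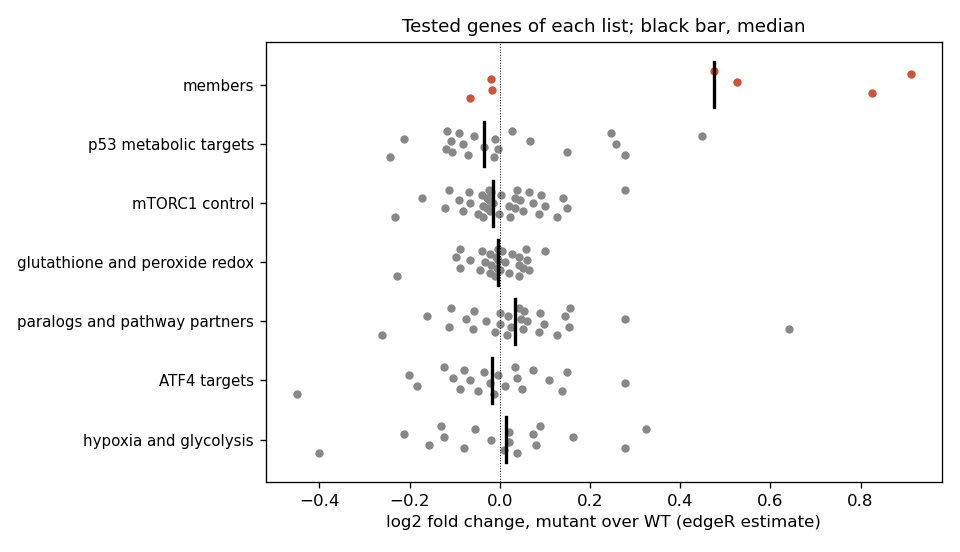
log2 fold change, mutant over WT (x axis), of every tested gene of the 8 described (red, top row, 7 genes) and of the other lists (grey, 1 row each), with points spread vertically for legibility and black bars at the medians. The medians of the other lists run from -0.035 to 0.034, and *Ddit4l* and *Slc19a2* lie to the right of every other gene shown.

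Genes near the mean profile of the 7 measured genes were found by root mean square difference in centred log2 CPM over the 6 libraries. The mean profile combines genes that were higher in the mutants with genes whose groups overlapped. A gene near it thus need not follow any of the 7. That profile is itself lower in the WT libraries (-0.15 to -0.25) than in the mutants (0.10 to 0.28), so genes near it are higher in mutants by construction, and their group difference is no result. The nearest 5 were *Necap2* (0.024), *Gm14295* (0.037), *Gm15446* (0.041), *Snord49a* (0.049) and *Bbc3* (0.053), against a median of 0.228 over all tested genes. *Bbc3* encodes Puma, which promotes apoptosis, and was at 10.4, 10.9 and 9.60 CPM in WT and at 11.7, 12.5 and 13.7 CPM in mutants. *Necap2*, which encodes an endocytic adaptor protein, was at 21.9, 22.3 and 20.7 CPM in WT and at 25.6, 27.5 and 29.5 CPM in mutants. *Snord49a* is a small nucleolar RNA.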

How the data were processed

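Total RNA was sequenced from 6 libraries of pooled E9.0 heads, 3 WT and 3 mutant. The authors trimmed the reads, aligned them to mm10 with STAR and deposited raw counts per gene symbol; their methods name HTSeq-count and Gencode M2, whereas the submitters' processing notes list Trim Galore, STAR, MultiQC and featureCounts. The kit marks strand, but whether counting used it is not given in the sources used here. The 8 genes and the other gene lists were chosen with earlier results of these data known. Counts were tested with edgeR 4.0.16 (trimmed mean of M-values, filterByExpr, robust quasi-likelihood fit of group, two-sided, Benjamini-Hochberg over 15584 genes), and DESeq2 1.42.0 served as an alternative; of its 21083 genes, 12908 had an adjusted p. Each edgeR SE is the absolute log2 fold change divided by the square root of the F statistic of the quasi-likelihood test. CPM values were scaled by the same factors, and log2 CPM used a prior count of 2. Coordinates, exon lengths and neighbours came from Gencode M21 (GRCm38), which matched 23376 symbols. The genes named were all 8, *Trp53*, *Cdkn1a*, *Snrpb*, paralogs, in each list those called and the 2 highest and 2 lowest without overlap, neighbours past 0.5 of the gene's change, and the 5 nearest profiles; 3 genes that this rule names are not reported here. Older symbols were matched through RefSeq synonyms for 4 list genes, and *Ak9* had no row. Library totals ran from 36378803 to 74909774 counts, and a count of 0 allows 3. Libraries are separate pools, so p-values measure the spread between pools of 2 heads. The scripts were tested on simulated data. Figures used matplotlib 3.10.9.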

Additional observations from a re-analysis of the deposited data

How the results depend on the processing

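The 4 higher genes kept their direction in all fits run. Their groups do not overlap, so leaving out a library could hardly reverse it, and this supports nothing. The limits are the small groups, the choice of tool and the choice of the genes with these values known. Over all tested genes, edgeR called 1 gene, and the count was 84 with DESeq2, 11 with no filter, 0 with the Y-linked level as a covariate, 0 with the heart marker level as a covariate, and between 0 and 6 with 1 library left out, without WT library 1 giving 6 and without mutant library 1 giving 5. DESeq2 called 112, 192 and 31 genes in all without WT library 1, 2 or 3 and 65, 25 and 58 without mutant library 1, 2 or 3, and between 1 and 3 of the 8 described, against 4 of them with all libraries and 0 in edgeR. The heart covariate and the DESeq2 fits with a library left out were chosen after seeing the data. The median log2 fold change of the 7 measured genes was 0.47, 0.35 with the heart covariate, between 0.37 and 0.55 with 1 library left out in edgeR, and between 0.37 and 0.55 in DESeq2, with 0.38 without WT library 3. With DESeq2 the other p53 metabolic targets held 1 call. List medians stayed small, but those given next moved in some fits by more than their spread. That spread is the SD, between libraries of a group, of the list's median centred log2 CPM. Leaving out 1 library gave -0.062 to -0.030 for p53 metabolic targets, -0.016 to 0.0049 for mTORC1 control and -0.019 to -0.00093 for glutathione and peroxide genes. It gave 0.0083 to 0.042 for paralogs and partners and -0.033 to 0.031 for hypoxia and glycolysis. Library size scaling gave -0.0026 for mTORC1 control, and the Y-linked covariate gave -0.052 for hypoxia and glycolysis. The medians of mTORC1 control and of hypoxia and glycolysis thus changed sign in some fits. The groups share replicate numbers in the sample titles, whereas the deposited counts number the mutant libraries differently from the WT ones. Libraries with the same number in the titles deviated together with correlations of 0.17, 0.032 and 0.36. Mutant libraries 1 and 3 correlated best with the WT library of the same number, and mutant library 2 with WT library 1 (0.088). With 3 libraries in each group, these values cannot show whether the numbers pair them. With the replicate number as a block the fit called 1 gene in all and 0 of the 8. The log2 fold changes in that fit were 0.91 for *Ddit4l*, 0.82 for *Slc19a2*, 0.54 for *Sesn2* and 0.48 for *Ak1*.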
